A study of Homo sapiens with 4 samples.

Results

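The transcripts described here are those of beta-catenin, of the complex that marks it for destruction and of the DNA-binding factors it works through. They were chosen by gene symbol as CTNNB1, APC, AXIN1, AXIN2, GSK3B, CSNK1A1, LEF1, TCF7, TCF7L1 and TCF7L2, and all 10 were among the 11972 protein-coding genes of the deposited table. RNA sequencing was done on 143B cells, a human osteosarcoma line. The 2 libraries called shFTO came from stable cells with a plasmid for shFTO, a hairpin directed at FTO, which encodes an RNA demethylase that acts on N6-methyladenosine. The 2 libraries called shCtrl came from stable cells with a control plasmid. Cells were grown in medium with puromycin, per the labels, and the labels do not say how many clones or hairpins were used. Separate cultures are not stated either, so a p-value here reflects the spread between the libraries sequenced, and that spread may be technical.

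In the absence of a Wnt signal, beta-catenin in the cytoplasm is held by the scaffolds AXIN and APC, phosphorylated first by casein kinase 1 alpha and then by GSK3, and passed to a ubiquitin ligase for degradation. A Wnt signal disables this complex, and beta-catenin then accumulates and enters the nucleus, where it binds TCF and LEF factors on DNA and turns them from repressors to activators. AXIN2, LEF1 and TCF7 are themselves targets of the pathway in many cell types. Much of this control acts on the protein and on where it is in the cell, which transcript levels do not measure. The series' title places FTO upstream of Wnt signalling, and the comparison of shFTO with shCtrl asks how the transcripts of the pathway's core stood after the knockdown.

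Promoter sequences are printed for CSNK1A1, whose libraries agreed closely within each group while the groups did not overlap, and for LEF1, the most abundant of the TCF/LEF transcripts. Each holds the 250 bases before an annotated RefSeq transcription start (GRCh38.p14), in lower case, 5′ to 3′ along the gene. The third sequence is a stretch of 30 bases at a second CSNK1A1 start, where capitals mark CTTTGA, the core of the element that TCF and LEF factors bind.
CSNK1A1 (chr5:149551440-149551689, minus strand): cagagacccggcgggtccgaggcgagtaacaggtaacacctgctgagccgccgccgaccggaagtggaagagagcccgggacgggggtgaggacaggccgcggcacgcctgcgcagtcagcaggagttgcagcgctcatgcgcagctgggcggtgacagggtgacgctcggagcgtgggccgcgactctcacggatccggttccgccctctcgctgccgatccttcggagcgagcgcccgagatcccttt
LEF1 (chr4:108166302-108166551, minus strand): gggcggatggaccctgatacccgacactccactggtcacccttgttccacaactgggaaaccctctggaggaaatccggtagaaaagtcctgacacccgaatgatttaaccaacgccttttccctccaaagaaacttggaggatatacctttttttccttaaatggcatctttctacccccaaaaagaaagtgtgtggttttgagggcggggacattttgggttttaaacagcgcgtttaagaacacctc
CSNK1A1, second start (chr5:149550331-149550360, minus strand): ccctgaagaggcCTTTGAggctggttgcct
The windows differ in composition. The 300 bases around the first CSNK1A1 start were 69.7% G and C and held 35 CG pairs. Those around the LEF1 start printed here were 47.0% G and C and held 9. The medians over all 35116 windows were 58.7% and 14. Whether the printed LEF1 start is the one these cells use was not tested. CTTTGA was searched on both strands (TCAAAG on the other) in windows from 250 bases before to 50 after each start. It lay in 1 of 14 windows of the 9 members with an entry, the second CSNK1A1 start, where its first base was the 18th base from the start. Of all windows, 12.9% held it. AXIN2 was the member with no entry.

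The 4 libraries summed to between 200555 and 212531 FPKM, a read density per kilobase of transcript, scaled for library size. Depth is unknown, since whole reads could not be recovered from the low values. FTO itself had 0.268 and 0.242 FPKM in the shFTO pair, below the 1.14 and 0.665 of the shCtrl pair. Its means were 0.255 and 0.902 FPKM, and no listed gene had both group means under 0.5001 FPKM, so FTO was listed only through shCtrl. The labelled tissue was checked on 8 mesenchymal and osteoblast markers, of which COL1A2 and THY1 were not among the listed genes. VIM, a mesenchymal intermediate filament gene, lay between 253 and 329 FPKM and SPARC, a bone matrix gene, between 61.3 and 85.3 FPKM. COL1A1, ALPL, S100A4 and RUNX2 were low, at 0.643 to 2.07, 0.32 to 0.934, 1.04 to 1.98 and 0.431 to 0.577 FPKM. S100A4 shares bases with a listed gene on its own strand and RUNX2 with one on the opposite strand, so their values are uncertain. The 6 listed markers summed to 400 and 317 FPKM in shFTO and to 340 and 361 FPKM in shCtrl. Of 4 tested, 3 (COL1A1, SPARC and S100A4) were lower in shFTO without overlap, as were 1965 of all 10873 tested genes (17.6% of all listed genes). The median of the 4 was -0.37 on the log2 scale, and SPARC had an unadjusted limma p of 0.0298 (limma adjusted p = 0.412). Of the 8 blood and endothelial markers only CD68 was listed, and of the 6 epithelial markers KRT8, KRT18 and EPCAM were. KRT8 and KRT18, which share bases on opposite strands, had both shFTO values below both shCtrl values. Their unadjusted limma p was 0.0335 and 0.0348 (limma adjusted p = 0.418 and 0.425), where 10.9% of all tested genes were under 0.05. EPCAM overlapped between the groups. The 3 epithelial genes summed to 150 and 124 FPKM in shFTO and to 175 and 192 FPKM in shCtrl, and the part of either set of markers in the results was not tested. In these bulk samples fewer cells of a type and less RNA per cell cannot be told apart.

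The core of the pathway was transcribed in every library, over a range of levels from the kinases and beta-catenin down to AXIN2 and TCF7. Ordered by mean FPKM in shCtrl, CTNNB1 stood first at 43.7 FPKM, followed by CSNK1A1 at 26.2 and GSK3B at 12.9. APC, at 5.41 FPKM, and AXIN1, at 5.37, were neighbours whose shCtrl libraries overlapped, and LEF1, TCF7L2 and TCF7L1 followed at 4.07, 2.58 and 1.78. AXIN2, at 0.695 FPKM, and TCF7, at 0.448, came last. All other neighbours in this order had separate shCtrl values. In shFTO the first 8 genes stood in the same order, CSNK1A1 and GSK3B overlapped, and TCF7 stood above AXIN2. Among all listed genes, 6.7% had a higher shCtrl mean than CTNNB1 and 97.8% had a higher one than TCF7.

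The genes are scattered over the genome, with APC, TCF7 and CSNK1A1 on chromosome 5 and CTNNB1 and GSK3B on chromosome 3. In hg19 coordinates, GSK3B spans 119540170 to 119813264, TCF7 133450402 to 133487556, and LEF1 108968701 to 109090112 on chromosome 4. AXIN1 spans 337440 to 402673 on chromosome 16, the chromosome of FTO, and AXIN2 spans 63524681 to 63557765 on chromosome 17. TCF7L1 spans 85360533 to 85537511 on chromosome 2 and TCF7L2 114710009 to 114927437 on chromosome 10. Gene length ran from 33085 bases for AXIN2 to 273095 bases for GSK3B. GENCODE release 29 annotates from 4 transcripts (TCF7L1) to 56 (CTNNB1) for these genes. The deposited FPKM give 1 value per gene, and which transcripts that value took in is not known here.

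**Figure D1:**
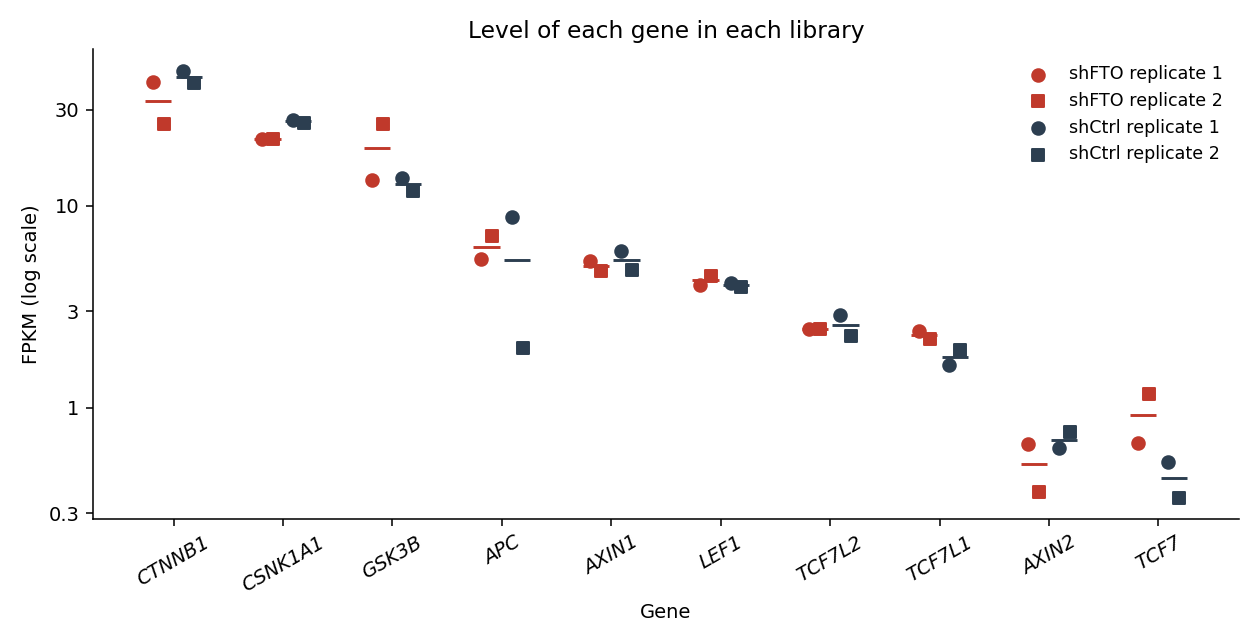
FPKM of each of the 10 genes (log axis) in each library, with shFTO in red, shCtrl in dark blue, circles for replicate 1, squares for replicate 2 and lines at the group means. The CSNK1A1 points lie close together within groups with the groups apart, and the shCtrl points of APC, at 8.84 and 1.98 FPKM, lie furthest apart.

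None of the 10 genes passed the threshold between shFTO and shCtrl. The test was limma on log2(FPKM + 1), with a Benjamini-Hochberg adjusted p under 0.05 over the 10873 genes that reached 1 FPKM in at least 2 libraries. AXIN2 and TCF7 did not reach that minimum, and their differences come from an equal fit that took in all 11972 listed genes. Of the 8 members tested, 0 passed, and 0 had an unadjusted limma p under 0.05. Over all tested genes 0.0276% passed and 10.9% had an unadjusted p under 0.05, 7.11% higher and 3.74% lower in shFTO. Of all 10 members, 5 had a mean above shCtrl and 5 below, and the median difference was 0.01 on the log2 scale, against 0.03 over all listed genes. The groups did not overlap for 3 of the 10 members, against 43.4% of all listed genes. These were CSNK1A1, lower in shFTO, and TCF7 and TCF7L1, higher. No listed gene had both group means under 0.5001 FPKM. The shCtrl mean of TCF7 was 0.448 FPKM, so TCF7 was listed only through shFTO and could be listed only if higher there.

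**Figure D2:**
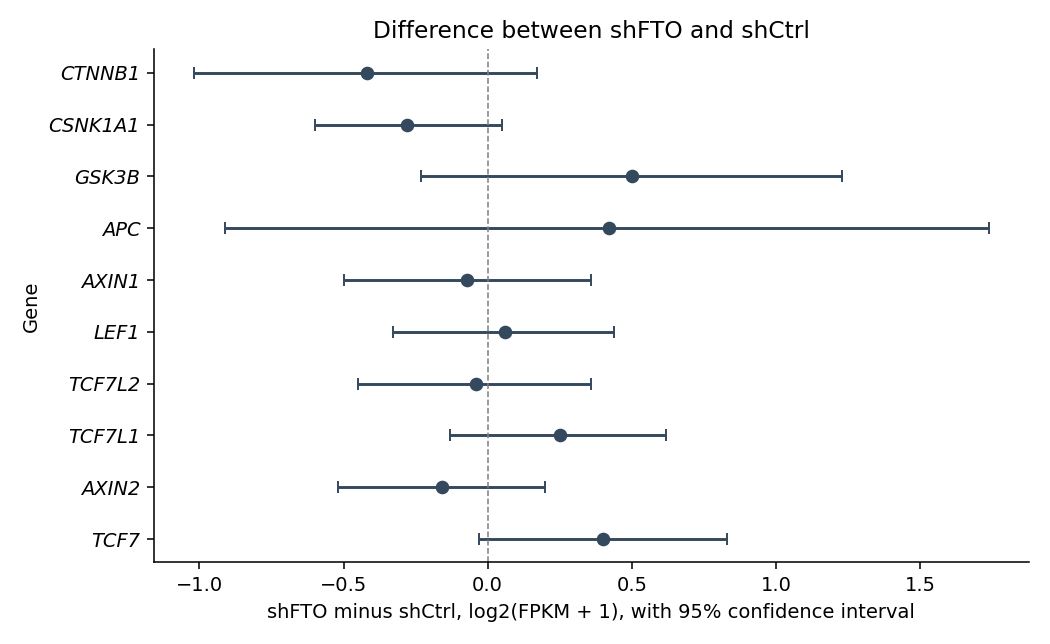
Difference between shFTO and shCtrl on the log2(FPKM + 1) scale for each of the 10 genes, ordered by shCtrl level, with 95% confidence intervals from limma. All 10 intervals include 0, and that of APC, from -0.91 to 1.74, is the widest.

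CTNNB1 encodes beta-catenin, the coactivator of the pathway and also the protein that links cadherins to alpha-catenin at cell junctions. It had 40.9 and 25.5 FPKM in the shFTO pair and 46.7 and 40.8 in the shCtrl pair. The higher shFTO library lay within the shCtrl range and the other lay well below it. On the log2(FPKM + 1) scale it differed by -0.42 (95% confidence interval -1.02 to 0.17, SE 0.24, limma adjusted p = 0.571). Without shFTO replicate 1 the difference was -0.75 (limma adjusted p = 0.0551), and without shFTO replicate 2 it was -0.09 (limma adjusted p = 0.878). The gene lies on chromosome 3, from 41236328 to 41301587 on the plus strand (hg19), and overlaps ULK4 on the opposite strand. The 3 tested genes whose pattern over the 4 libraries was most like that of CTNNB1 were IGF2BP2, NUP98 and USP1, with Pearson r of 0.9999, 0.9999 and 0.9998. This is a description over 4 libraries, in which 413 of the 10872 other tested genes (3.8%) reached r of 0.95.

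JUP, which encodes gamma-catenin, the paralogue that takes the place of beta-catenin in junctions, was present at a small fraction of that level. It had 0.85 and 0.763 FPKM in the shFTO pair and 0.636 and 0.632 in the shCtrl pair. The CTNNB1 value was 48.2 and 33.4 times that of JUP in the shFTO libraries and 73.5 and 64.5 times in the shCtrl libraries. These ratios did not overlap between the groups (exact two-sided permutation p = 0.333, the smallest that 2 against 2 libraries can give).

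The scaffolds of the destruction complex are APC and the AXIN proteins. APC, the tumour suppressor that is truncated in most colorectal cancers, had 5.45 and 7.1 FPKM in the shFTO pair and 8.84 and 1.98 in the shCtrl pair. Both shFTO values lay between the shCtrl values. The gap between the shCtrl libraries was 1.72 on the log2 scale, and only 0.239% of tested genes had a larger one. The median gap was 0.15 for the shCtrl pair and 0.21 for the shFTO pair. The difference of APC was 0.42 on the log2 scale (95% confidence interval -0.91 to 1.74, SE 0.54, limma adjusted p = 0.814). It was 1.28 without shCtrl replicate 1 and -0.45 without shCtrl replicate 2, so its direction rested on 1 library. APC lies on chromosome 5, from 112043195 to 112181936 on the plus strand (hg19).

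AXIN1, the scaffold expressed in most tissues, had 5.33 and 4.77 FPKM in the shFTO pair and 5.95 and 4.79 in the shCtrl pair, overlapping sets of values. Its difference was -0.07 on the log2 scale (95% confidence interval -0.50 to 0.36, limma adjusted p = 0.915), and it was 0.06 without shCtrl replicate 1. AXIN2, the inducible scaffold that acts as a feedback inhibitor and is widely used as a readout of the pathway, had 0.664 and 0.384 FPKM in the shFTO pair and 0.631 and 0.758 in the shCtrl pair. One shFTO library lay inside the shCtrl range and the other below it. The difference was -0.16 (95% confidence interval -0.52 to 0.20, limma adjusted p = 0.713, fit over all listed genes). With a pseudocount of 0.1, which compresses such low values less, it was -0.38. It was -0.03 without shFTO replicate 2, -0.29 without shFTO replicate 1 and -0.10 without shCtrl replicate 2. AXIN1 exceeded AXIN2 by 8.03 and 12.4 times in the shFTO libraries and by 9.42 and 6.32 times in the shCtrl libraries.

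**Figure D3:**
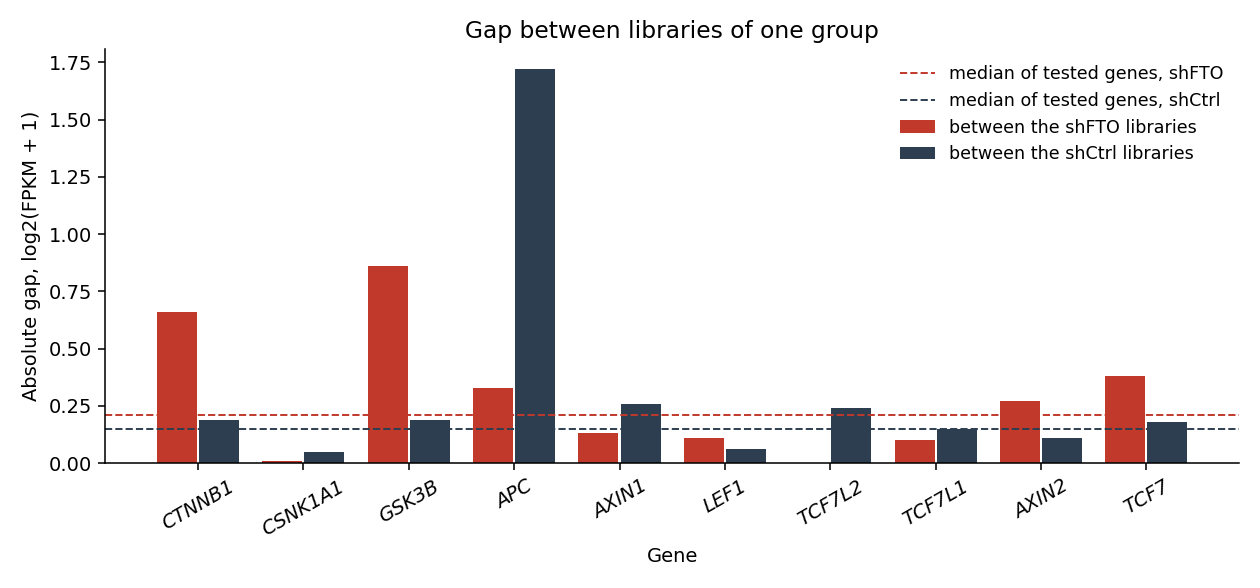
Absolute gap on the log2(FPKM + 1) scale between the 2 shFTO libraries (red bars) and between the 2 shCtrl libraries (dark blue bars) for each of the 10 genes, with dashed lines at the medians of all tested genes, 0.21 and 0.15. The shCtrl gap of APC, 1.72, and the shFTO gaps of GSK3B, 0.86, and CTNNB1, 0.66, stand out.

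The kinases of the complex are casein kinase 1 alpha, which primes beta-catenin, and GSK3 beta, which adds the phosphates that the ubiquitin ligase reads. CSNK1A1 had 21.5 and 21.4 FPKM in the shFTO pair and 26.7 and 25.8 in the shCtrl pair. The libraries of each group nearly coincided and both shFTO values lay below both shCtrl values. Its mean was 21.5 ± 0.112 FPKM (SD, n = 2) against 26.2 ± 0.602 FPKM (SD, n = 2), 0.818 times the shCtrl mean. The difference was -0.28 on the log2 scale (95% confidence interval -0.60 to 0.05, SE 0.13), short of the threshold (limma adjusted p = 0.515, unadjusted p = 0.0818). Under the alternatives tried it ran from -0.31 to -0.24, with limma adjusted p from 0.398 to 0.979. In the authors' deposited table CSNK1A1 had p = 0.00687 and q = 0.503, the smallest p among the 10 members there. The gene lies on chromosome 5, from 148871760 to 148931115 on the minus strand (hg19).

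Of 5 other casein kinase 1 genes, 3 stood higher in both shFTO libraries and 2 overlapped, while 25.7% of all listed genes stood higher without overlap. CSNK1E and CSNK1D, whose kinases act on Dishevelled and on circadian clock proteins, had 15.4 and 17.2 FPKM, and 8.2 and 9.47 FPKM, in shFTO. In shCtrl they had 13.6 and 15.1 FPKM, and 7.4 and 7.88 FPKM. CSNK1G2, a membrane-bound form, had 19.9 and 19.8 FPKM in the shFTO pair and 15 and 18 in the shCtrl pair. Each of these 3 genes had both shFTO values above both shCtrl values, and none passed (limma adjusted p from 0.586 to 0.714). CSNK1G1 and CSNK1G3 overlapped between the groups, averaging 3.43 and 8.02 FPKM in shFTO and 3.24 and 8.83 in shCtrl. Relative to CSNK1E, CSNK1A1 stood at 1.4 and 1.24 times in the shFTO libraries and at 1.96 and 1.71 times in the shCtrl libraries. Relative to CSNK1D it stood at 2.63 and 2.26 against 3.6 and 3.28 times. A ratio within a library does not depend on how libraries are scaled, and both ratios were lower in each shFTO library (exact two-sided permutation p = 0.333 for each, the smallest possible here). None of the 3 genes passed on its own, so these ratios are given as values.

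GSK3B had 13.5 and 25.4 FPKM in the shFTO pair and 13.8 and 11.9 in the shCtrl pair. The first shFTO library lay inside the shCtrl range and the second stood far above the other 3 libraries. The difference was 0.50 on the log2 scale (95% confidence interval -0.23 to 1.23, SE 0.29, limma adjusted p = 0.586). Without shFTO replicate 1 it was 0.93 and passed (limma adjusted p = 0.0336), in a fit that takes the spread of the single remaining shFTO library from the shCtrl libraries, and without shFTO replicate 2 it was 0.07 (limma adjusted p = 0.921). Its paralogue GSK3A, which can stand in for GSK3B in the complex, had 9.09 and 8.58 FPKM in the shFTO pair and 7.91 and 8.2 in the shCtrl pair (limma adjusted p = 0.805). GSK3A overlaps another listed gene on its strand, so its value is uncertain. GSK3B was 1.48 and 2.95 times as high as GSK3A in the shFTO libraries and 1.74 and 1.46 times in the shCtrl libraries. In shFTO replicate 2, then, GSK3B was at its highest and CTNNB1 at its lowest of the 4 libraries, and a link between them was not tested. Over all listed genes, this library was the least like the others, with Pearson r from 0.961 to 0.964 on the log2 scale. For shFTO replicate 1, r was 0.973 with shCtrl replicate 2 and 0.964 with shFTO replicate 2.

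The TCF and LEF factors share an HMG box that binds DNA and a segment at the start of the protein that binds beta-catenin. TCF7L1 acts mainly as a repressor, whereas LEF1, TCF7 and TCF7L2 serve as activators once beta-catenin is bound and have shorter forms that lack the beta-catenin segment. LEF1 had 4.07 and 4.48 FPKM in the shFTO pair and 4.17 and 3.97 in the shCtrl pair, overlapping and close together in all 4 libraries. Its difference was 0.06 on the log2 scale (95% confidence interval -0.33 to 0.44, limma adjusted p = 0.927). TCF7L2 had 2.45 and 2.46 FPKM in shFTO, both inside the shCtrl values of 2.88 and 2.27 FPKM. Its difference was -0.04 (95% confidence interval -0.45 to 0.36, limma adjusted p = 0.948), and it was 0.08 without shCtrl replicate 1.

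TCF7L1 had 2.41 and 2.18 FPKM in the shFTO pair and 1.63 and 1.93 in the shCtrl pair, so that both shFTO values lay above both shCtrl values. The difference was 0.25 on the log2 scale (95% confidence interval -0.13 to 0.62, SE 0.15, limma adjusted p = 0.602). TCF7 had 0.668 and 1.17 FPKM in the shFTO pair and 0.537 and 0.358 in the shCtrl pair, also without overlap. As given above, TCF7 was listed only through shFTO. Its mean was 2.06 times the shCtrl mean, at a level where the log2(FPKM + 1) scale understates the ratio. The difference on that scale was 0.40 (95% confidence interval -0.03 to 0.83, SE 0.17, limma adjusted p = 0.474, fit over all listed genes), and with a pseudocount of 0.1 it was 0.87 (limma adjusted p = 0.474). Leaving out shFTO replicate 2 gave 0.21, and leaving out replicate 1 gave 0.59. TCF7 overlaps SKP1, which had 6.39 to 10.0 FPKM, on the opposite strand of chromosome 5. The sources used here do not say whether reads were counted by strand, so reads of these neighbours may not have been told apart.

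Summed over the 4 factors, the TCF/LEF transcripts came to 9.6 and 10.3 FPKM in the shFTO pair and 9.22 and 8.53 in the shCtrl pair. LEF1 made up the largest share in every library, 42.4% and 43.5% in shFTO and 45.2% and 46.6% in shCtrl. TCF7L2 made up 25.5% and 23.9% in shFTO and 31.2% and 26.6% in shCtrl. The TCF7 share was 6.96% and 11.4% in shFTO against 5.83% and 4.2% in shCtrl. These 3 shares did not overlap between the groups, with differences of -2.96, -4.23 and 4.17 percentage points for LEF1, TCF7L2 and TCF7 (exact two-sided permutation p = 0.333 each, the smallest possible with 2 against 2 libraries). The shares of a library add up to the whole, so a rise in 1 lowers others and the 3 are not independent. In FPKM, LEF1 averaged 4.28 in shFTO against 4.07 in shCtrl and TCF7L2 2.46 against 2.58, both overlapping. Leaving out shFTO replicate 2 gave a TCF7 difference of 1.94 points, and leaving out replicate 1 gave 6.4. The TCF7L2 difference was -1.94 points without shCtrl replicate 1 and -6.53 without shCtrl replicate 2. The TCF7L1 share overlapped, at 25.1% and 21.2% in shFTO against 17.7% and 22.6% in shCtrl (exact permutation p = 0.667). Gene-level FPKM do not separate the full-length forms from those without the beta-catenin segment.

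**Figure D4:**
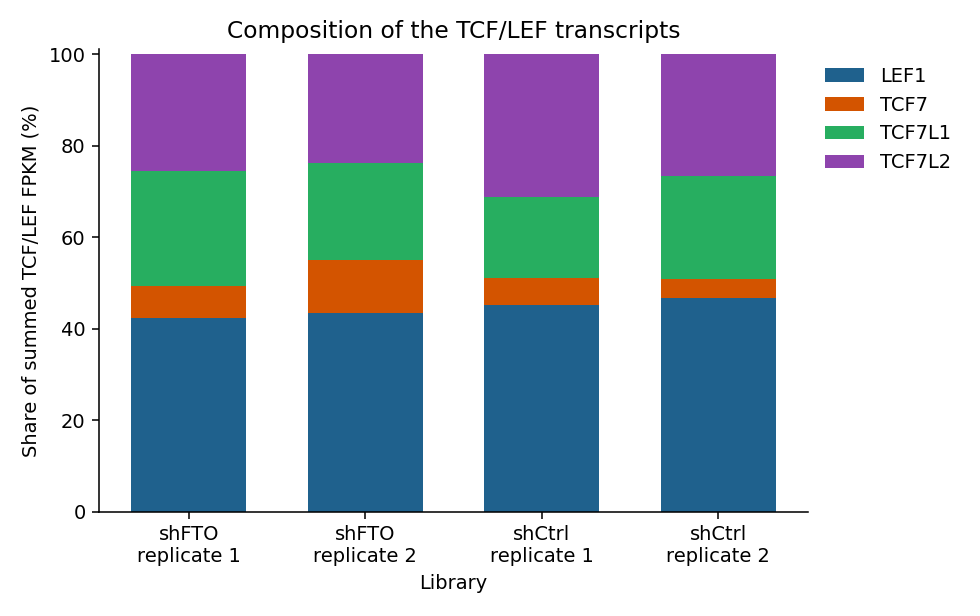
Share of LEF1, TCF7, TCF7L1 and TCF7L2 in their summed FPKM (%) in each library. LEF1 is the largest segment in all 4 libraries, and the TCF7 segment is larger in both shFTO libraries, at 6.96% and 11.4%, than in the shCtrl libraries.

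Genes that work beside the core were then described by list, each beside all tested genes, of which 53.8% had a mean above shCtrl and the median difference was 0.02 on the log2 scale. The lists were chosen with earlier results of these data known, so their counts and medians are a description and no list was tested as a set. No gene of these lists passed over all genes tested. Of the genes named from them, CSNK1G1, PYGO2 and SKP1 share bases with a listed neighbour on their own strand. CSNK1D, PPP2R1B, RUVBL1, CARM1, HIC1, ARVCF and CCND1 share bases with one on the opposite strand. The values of all these genes are uncertain. Among other genes of the destruction complex, its ubiquitin ligase and the tankyrase pathway, 14 of 26 tested genes were above shCtrl, the median was 0.03 (-0.01 without shFTO replicate 2), and 0 had an unadjusted limma p under 0.05. RNF146, the ubiquitin ligase that removes AXIN after tankyrase has modified it, had 7.89 and 7.62 FPKM in the shFTO pair and 6.28 and 5.91 in the shCtrl pair. AMER1, which brings APC and AXIN to the membrane, had 3.9 and 3.73 against 5.39 and 4.17 FPKM. PPP2R1B, a scaffold subunit of the phosphatase PP2A, had 7.72 and 4.22 against 8.57 and 8.28 FPKM, and DVL1, a Dishevelled gene, had 14 and 24.9 against 23.4 and 26.1 FPKM. None of these 4 passed (limma adjusted p from 0.53 to 0.648).

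Of 16 tested coactivators of beta-catenin, 7 were above shCtrl, the median was -0.10, and 0 had an unadjusted p under 0.05. That median was -0.02 without shFTO replicate 1 and -0.03 without shCtrl replicate 1. CARM1, an arginine methyltransferase, had 11.7 and 15.8 FPKM in the shFTO pair and 10.2 and 10.3 in the shCtrl pair. RUVBL2 and RUVBL1, the paired helicases of chromatin complexes, averaged 34.9 and 27.3 against 43.1 and 32.5 FPKM, and CDC73 of the PAF complex had 8.69 against 10.3 FPKM. BCL9 and PYGO2, dedicated adaptors that join beta-catenin to chromatin, averaged 12.6 and 3.15 FPKM in shFTO against 10.6 and 2.94 in shCtrl. Their paralogues BCL9L and PYGO1 went the other way, averaging 7.54 and 2.85 FPKM in shFTO against 8.44 and 3.15 in shCtrl. Only BCL9L of these adaptors had groups that did not overlap. The adaptors were named for their function after their values were seen. None of these genes passed (smallest limma adjusted p = 0.521).

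Most genes listed as corepressors of TCF or inhibitors of beta-catenin binding encode proteins that help to keep TCF targets off. AES is counted with them, though its protein lacks a domain of its long relatives. Of 17 tested, 13 were above shCtrl, the median difference was 0.29, and 6 (35.3%) had an unadjusted limma p under 0.05, 5 higher and 1 lower, against 10.9% of all tested genes, 7.11% higher and 3.74% lower. The median was 0.15 without shCtrl replicate 1 and 0.16 without shFTO replicate 2. The groups did not overlap for 10 of them (58.8%), against 42.6% of all tested genes. CTNNBIP1, which blocks the binding of TCF to beta-catenin, had 6.78 and 7.69 FPKM in the shFTO pair and 2.32 and 3.21 in the shCtrl pair (limma adjusted p = 0.159). SOX7, an HMG-box factor reported to hold back beta-catenin and TCF, had 12.8 and 12.5 FPKM in the shFTO pair and 6.36 and 7.48 in the shCtrl pair (difference 0.79, SE 0.16, limma adjusted p = 0.208).

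The Groucho-related TLE genes, whose proteins sit on TCF when beta-catenin is absent, lay on both sides of shCtrl. TLE2 had 2.75 and 2.19 FPKM in the shFTO pair and 1.16 and 1.5 in the shCtrl pair (difference 0.57, limma adjusted p = 0.344). TLE4 had 2.27 and 2.94 FPKM in the shFTO pair and 4.87 and 4.0 in the shCtrl pair (difference -0.59, limma adjusted p = 0.359). Both had separate groups, and neither passed. AES, a short family member that lacks the repeat domain of the long forms, had 24.6 and 17.6 against 12.4 and 15.7 FPKM, TLE1 had 2.99 and 4.16 against 2.12 and 2.48 FPKM, and TLE3 overlapped. As shares of the summed FPKM of these 5 genes, TLE4 stood at 6.22% and 9.22% in shFTO and at 19.2% and 14.3% in shCtrl, and TLE2 at 7.52% and 6.86% against 4.58% and 5.37%. The TLE family, and HIC1, the other gene with an unadjusted p under 0.05 (2.6 and 1.05 against 0.674 and 0.695 FPKM), were singled out after their values were seen.

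**Figure D5:**
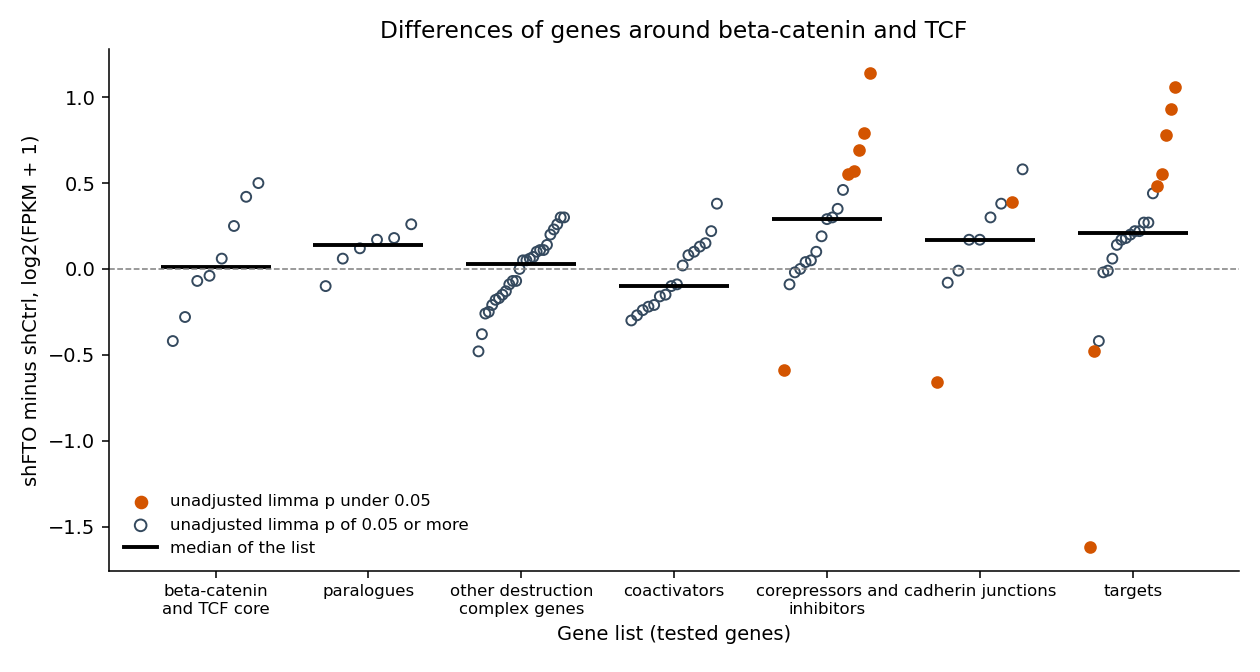
Difference between shFTO and shCtrl on the log2(FPKM + 1) scale for the tested genes of each list, with black lines at the list medians and filled points where the unadjusted limma p was under 0.05. The 8 tested genes of the beta-catenin and TCF core have 0 filled points and a median of 0.01, and the corepressors and inhibitors have 6 and a median of 0.29. The lists were chosen with earlier results of these data known.

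Beta-catenin also serves at cadherin junctions, where 6 of 9 tested genes were above shCtrl with a median of 0.17, and 2 (22.2%) had an unadjusted p under 0.05, against 10.9% of all tested genes. The median was 0.30 without shCtrl replicate 1 and 0.11 without shFTO replicate 2. CDH2, the N-cadherin gene and the most abundant cadherin of the list, had 35.6 and 38.9 FPKM in the shFTO pair and 34.0 and 32.0 in the shCtrl pair and was named after its values were seen. CDH4, encoding R-cadherin, had 4.78 and 4.13 FPKM in the shFTO pair and 7.7 and 7.5 in the shCtrl pair (difference -0.66, SE 0.16, limma adjusted p = 0.286). ARVCF, a relative of p120-catenin, had 1.78 and 1.46 against 0.931 and 1.08 FPKM (limma adjusted p = 0.444). CDH11, the osteoblast cadherin gene, and CDH13 averaged 3.68 and 1.69 FPKM in shFTO against 2.59 and 1.18 in shCtrl. The E-cadherin gene CDH1 was not among the listed genes.

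Feedback and target genes of the pathway were the remaining list, which includes the members AXIN2, LEF1 and TCF7. Of its 34 genes 24 were listed, and RNF43, LGR5, SP5, APCDD1 and ASCL2 were among those that were not. Of 20 tested, 15 were above shCtrl, the median was 0.21, and 7 (35.0%) had an unadjusted p under 0.05, 5 higher and 2 lower, where the shares over all tested genes were 7.11% and 3.74%. TCF4 in this list is the gene of a helix-loop-helix factor reported as a beta-catenin target and is not TCF7L2, whose protein also goes by that name. It had 2.22 and 3.11 FPKM in the shFTO pair and 0.894 and 0.93 in the shCtrl pair (difference 0.93, SE 0.17, limma adjusted p = 0.2). JUN, the AP-1 subunit gene, had 84.5 and 89.6 against 60.3 and 64.0 FPKM, and VEGFA, the vascular growth factor gene, had 8.04 and 6.82 against 4.68 and 4.83 FPKM. BIRC5, which encodes survivin, had 5.69 and 5.09 against 7.93 and 7.9 FPKM. None of these 4 passed (limma adjusted p up to 0.374), and JUN, VEGFA and BIRC5 are also controlled by other pathways. TNFRSF19 had 3.87 and 7.19 against 2.75 and 2.63 FPKM, and MYC had 3.85 and 4.51 against 2.84 and 0.612 FPKM. Both had an unadjusted limma p under 0.05, and neither passed (limma adjusted p = 0.41 and 0.441). CCND1 overlapped between the groups, averaging 158 FPKM in shFTO and 159 in shCtrl. The targets used as dedicated readouts lay on both sides of shCtrl. AXIN2 was below it by its mean, by a margin that came close to 0 without shFTO replicate 2, and LEF1 was close to it. TCF7 was above it without overlap, at 2.06 times the shCtrl mean and at low values. DKK1 was below it without overlap, at 8.5 and 38.5 against 53.9 and 63.2 FPKM (limma adjusted p = 0.451). NKD2, LGR4 and NOTUM had means above it and overlapped between the groups. NKD1, a feedback inhibitor, had 0.6 and 0.531 FPKM against 0.248 and 0.228 FPKM (limma adjusted p = 0.398, fit over all listed genes). NKD1 and TCF7 had shCtrl means of 0.238 and 0.448 FPKM and were listed only through shFTO. No listed gene had both group means under 0.5001 FPKM, so genes this low in shCtrl could be listed only if higher in shFTO. ZNRF3, the ligase that removes Wnt receptors, had 3.8 and 3.44 against 2.97 and 2.94 FPKM (limma adjusted p = 0.635). NKD1, ZNRF3, DKK1, NKD2, LGR4 and NOTUM were named for their function after their values were seen. TNFRSF19, MYC and CCND1 were also named after their values were seen.

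DACT1, the antagonist named in the series' title, had 1.61 and 2.06 FPKM in the shFTO pair and 0.154 and 0.595 in the shCtrl pair (limma adjusted p = 0.206). Its shCtrl mean was 0.375 FPKM, and no listed gene had both group means under 0.5001 FPKM, so DACT1 was listed only through shFTO. The intervals of the core members bound the differences that these libraries allow. The narrowest, that of CSNK1A1, ran from -0.60 to 0.05 on the log2 scale, and those of LEF1 and AXIN1 lay within 0.50 of 0 in either direction. For CTNNB1, GSK3B and APC, whose libraries disagreed within a group, the intervals reached to -1.02, 1.23 and 1.74. An adjusted p that misses the threshold does not show that a gene was at the same level in both groups.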

How the data were processed

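Gene expression was measured by RNA sequencing of poly(A)-selected RNA in 4 libraries of 143B cells, 2 shFTO and 2 shCtrl, grouped by their titles. The libraries were of the dUTP kind, which keeps strand, per the labels' protocols. Tools named in the submitters' processing notes, without roles, are STAR 2.5.2b, HISAT2 2.0.5, cutadapt and StringTie, and the build is hg19. The authors deposited an FPKM value per gene and library, per the file headers. The authors' deposited group columns equal means of log2(FPKM + 1), their log2 fold change is the difference of these, the fold change is 2 to that power, and p-value and q-value columns were deposited beside them. No row had both group means under 0.5001 FPKM.

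From these values, limma 3.58.1 in R 4.3.3 was fitted to log2(FPKM + 1) (trended variance, no block) for genes that 2 or more libraries held at 1 FPKM or above, and p-values were adjusted by the Benjamini-Hochberg method over all of them. Members under that minimum were read from an equal fit to every listed gene. Exact permutation tests used scipy 1.17.1. Depth per library is unknown, so no counting interval was computed. On simulated data for shFTO against shCtrl (10 sets of 10873 genes, 200 changed), limma recovered 33.4% of differences of 1, 74.9% of 2 and 88.8% of 3 on the log2 scale. The changed genes had a mean above 2 on that scale, and the spreads were shuffled over genes. TCF7L2, TCF7L1, AXIN2 and TCF7 lie below that mean, so the rates do not cover them. Alternatives covered the pseudocount, filter, scaling, variance model, replicate block and each left-out library. Promoter windows came from RefSeq (GRCh38.p14) by symbol, with 9 of 10 members matched, and gene coordinates from the deposited table (hg19). The members and lists were chosen with earlier results of these data known. Named genes were the members, their paralogues, FTO, DACT1, the genes most like CTNNB1, and up to 4 genes with the smallest p in each list. BCL9, BCL9L, PYGO1, PYGO2, CDH2, NKD1, NKD2, ZNRF3, LGR4, NOTUM, DKK1, TNFRSF19, MYC, CCND1, the TLE family and HIC1 were added after their values were seen. Marker genes were named to check the tissue.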

Additional observations from a re-analysis of the deposited data

How the results depend on the processing

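The filter, variance model and replicate block alternatives refit the same log2 values. A member's difference could not change under them, only its p-value, and they are part of the counts that follow. Of 115 recomputed member differences, 109 kept their direction and stayed above the threshold. The exceptions were APC (-0.45 without shCtrl replicate 2), AXIN1 (0.06) and TCF7L2 (0.08) without shCtrl replicate 1, LEF1 (-0.00294 with quantile normalization, -0.000167 without shFTO replicate 2) and GSK3B, which passed at 0.93 without shFTO replicate 1. For LEF1, AXIN1 and TCF7L2 the differences were near 0 throughout. With 1 library left out, the ranges were -0.45 to 1.28 for APC, 0.07 to 0.93 for GSK3B, -0.20 to 0.06 for AXIN1, -0.17 to 0.08 for TCF7L2, -0.29 to -0.03 for AXIN2, -0.75 to -0.09 for CTNNB1, 0.21 to 0.59 for TCF7 and -0.000167 to 0.11 for LEF1. Over all tested genes, limma called 3 in the main test, 0 with a pseudocount of 0.1 (1167 at unadjusted p under 0.05) and 1 with no filter, with median-ratio scaling or without the variance trend. Leaving out 1 library gave 0 to 429 calls over all genes, 0 to 1 among the members (0 to 2 at unadjusted p under 0.05) and 0 to 6 among the pathway lists (5 to 24 at unadjusted p under 0.05, against 15 with all libraries). With a filter at a mean of 5 FPKM, 8 list genes had an unadjusted p under 0.05. The cause of these shifts was not tested. Same-numbered libraries did not deviate together (r = -0.192 across genes). With the replicate block 15 genes and 0 members passed. With the numbers crossed, an alternative chosen after seeing the data, 0 genes passed (the count at unadjusted p under 0.05 was 1430). Of 72 recomputed list medians, 55 moved by less than the SD of that median between replicates. That count includes the variance model and replicate block alternatives, under which a median could not move. The corepressor median ran from 0.15 to 0.29 with 1 library left out, that of coactivators from -0.14 to -0.02 and that of junction genes from 0.11 to 0.30, the last being 0.08 with a mean of at least 5 FPKM. In the simulated data limma called 33.4% of differences of 1 on the log2 scale, and smaller ones, such as those of these members, were not simulated.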
